A study of Mus musculus with 17 samples.

Results

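The genes described here form the lipid droplet and lipolysis machinery of the cell, a set of 10 genes out of 35971 genes measured in mouse kidney. They are the perilipins Plin2, Plin3, Plin4 and Plin5, the triacylglycerol synthases Dgat1 and Dgat2, the triacylglycerol lipase Pnpla2, its activator Abhd5 and its inhibitors G0s2 and Hilpda. The members were chosen by gene symbol, and their transcripts were summed to genes in each of 17 kidney libraries. All 10 members passed the filter on low counts.

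Lipid droplets store neutral fat, mostly triacylglycerol, under a single layer of phospholipid that is coated with proteins, among which the perilipins control the access of lipases. DGAT1 and DGAT2 add the last fatty acid to make triacylglycerol, and ATGL, the protein of Pnpla2, removes the first one again when it is activated by ABHD5, while G0S2 and HILPDA hold ATGL back. In the kidney, proximal tubule cells burn fatty acids for energy, and clear cell tumors of the kidney are known for cytoplasm rich in lipid droplets.

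PRCC‐TFE3 is a fusion of a transcription factor of the MiT/TFE family that drives a form of renal cell carcinoma, TFE3‐RCC. The study asked how the fusion changes the kidney and what the loss of the hypoxia-inducible factors Hif1α and Hif2α does on top of it. RNA of whole kidneys was sequenced from stranded mRNA libraries in single reads of 75 nt, and each library held 16504419 to 24668827 counts. All 17 mice carried the lsl-PRCC-TFE3 KI allele, which stays silent until Cre recombinase removes a stop cassette. The 4 control mice, called Cre(−), had the genotype KSP-Cre(−), and of these replicates 1 and 2 also carried HIF1af/f while replicates 3 and 4 carried no floxed Hif allele. The 3 PRCC‐TFE3 KI mice (KI) carried KSP-Cre(+), the 4 Hif1α KO mice KSP-Cre(+) with HIF1af/f, the 3 Hif2α KO mice KSP-Cre(+) with HIF2af/f, and the 3 DKO mice KSP-Cre(+) with both floxed alleles, so that each KO group also expressed the fusion. KSP-Cre is driven by the cadherin 16 promoter in tubule epithelium, while the RNA also came from the other cells of the kidney. The labels give no age, sex or litter for the sequenced kidneys. No group carried a Hif deletion without the fusion, so the effect of Hif loss in a kidney without the fusion was not measured.

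The targeted genes were detected in every library. Hif1a had 162.6 to 198.4 CPM (counts scaled to TMM-adjusted library size) in Hif1α KO kidneys against 184.0 to 231.6 in KI kidneys, and Epas1, the gene of Hif2α, had 136.5 to 149.3 CPM in Hif2α KO kidneys against 173.2 to 191.7 in KI kidneys. Counts of a whole gene also cover exons outside the floxed part, so these values do not check the deletion. Kidney markers were present in all libraries, with Cdh16 between 432.4 and 709.6 TPM (abundance scaled for transcript length and library total). The summed TPM of 10 proximal tubule markers lay between 6679 and 8090 in Cre(−) kidneys and between 345.8 and 477.5 in KI kidneys, and that of 8 macrophage markers between 133.6 and 174.2 in Cre(−) and between 794.3 and 1091 in KI kidneys. KI replicate 2 stood apart from the other libraries in 10 adipocyte markers, with a sum of 3714 TPM against 88.1 to 740.2 in the other 16 libraries. These include Adipoq, at 165.0 TPM in that library and at most 29.3 TPM elsewhere. Of the adipocyte markers, Lep was at 0 in 2 libraries and Ucp1 in 3, and no other was at 0. In bulk samples, fewer cells of a type and less RNA per cell cannot be told apart. The library numbers largely follow the groups, so order and group cannot be told apart either.

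Plin2, on chromosome 4 of GRCm38 (86648386 to 86670060, minus strand), lies apart from the other perilipins. Plin4 (56100591 to 56109803), Plin5 (56111601 to 56117596) and Plin3 (56277476 to 56292873) lie on the minus strand of chromosome 17 within 192.3 kb, and Plin4 and Plin5 are only 1797 bases apart. Exons of Plin4 overlap exons of Hdgfl2 on the opposite strand, and those of Abhd5 overlap A730085K08Rik on the opposite strand. Whether the counting used the strand is not given in the sources used here, so a share of the reads of these genes could belong to the overlapping gene.

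RefSeq promoter sequences (GRCm38.p6, 250 bases before to 50 bases after each start site) were matched for 8 of the 10 members, all but Dgat1 and Dgat2. They were searched on both strands for the E-box CACGTG, which MiT/TFE factors bind, and for the direct repeat of PPAR–RXR. They were also searched for ACGTG, a form of the core of the hypoxia response element, while the form GCGTG was not searched. Every CACGTG also holds ACGTG. Of 32851 promoters in the table, 7.15% held CACGTG, 19.6% held ACGTG and 0.0396% held the direct repeat. Plin2 held CACGTG across its start site and Hilpda, in the downstream of its 2 entries, held ACGTG from 43 bases before the start site. The other 6 genes held none of the motifs searched. The sequences below run 5′ to 3′ from 100 bases before to 10 bases after the start site, with matches in capitals. They are shown because Plin2 and Hilpda hold the matches and Plin4 changed most without one.
Plin2 (chr4:86670050-86670159, minus strand): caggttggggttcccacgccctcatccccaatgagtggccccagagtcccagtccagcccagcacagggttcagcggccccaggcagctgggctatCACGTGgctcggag
Hilpda (chr6:29272526-29272635, plus strand): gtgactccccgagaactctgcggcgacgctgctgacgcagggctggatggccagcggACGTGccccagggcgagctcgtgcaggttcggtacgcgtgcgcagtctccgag
Plin4 (chr17:56109773-56109882, minus strand): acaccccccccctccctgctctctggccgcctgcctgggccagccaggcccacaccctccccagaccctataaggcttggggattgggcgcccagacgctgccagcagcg
A match describes letters only, and no binding data were analysed here.

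The first comparison, KI against Cre(−), asked what the fusion changes. In KI kidneys the perilipins Plin2, Plin3 and Plin4, the activator Abhd5 and the inhibitor Hilpda rose, and Plin5, Dgat2 and the inhibitor G0s2 fell, while Dgat1 and Pnpla2 did not pass the test. Thus 5 of 10 members were higher, where 31.6% of the 17011 genes tested were higher, and 3 of 10 were lower, where 29.3% of all genes were. The median log2 fold change was 0.52 over the members and 0.03 over all genes. Tests were run with edgeR (quasi-likelihood) and p-values were adjusted by Benjamini-Hochberg over all genes. Markers of other cells moved too, since 10 of 10 proximal tubule markers were lower and 7 of 8 macrophage markers were higher in KI kidneys. Of the 10 adipocyte markers 5 were called higher, Adipoq, Retn, Cfd, Adrb3 and Cidec, but for each of them the KI and Cre(−) libraries overlapped and KI replicate 2 held by far the highest value. Their part in the members' values was not tested, except where a fit is named.

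Plin4, a perilipin best known from adipocytes and muscle, had 8.98, 12.0, 8.74 and 10.0 CPM in Cre(−) kidneys and 234.9, 371.4 and 303.7 CPM in KI kidneys. Every KI library was more than an order of magnitude above every Cre(−) library. The log2 fold change was 4.93 ± 0.19 (SE), or 30.4-fold (edgeR quasi-likelihood test, adjusted p = 4.91e-11), and it was 4.76 without KI replicate 2, the library rich in adipocyte markers. Plin3, the broadly expressed perilipin that is cytosolic until droplets form, had 71.9, 77.3, 61.2 and 67.2 CPM in Cre(−) and 254.8, 252.0 and 291.8 CPM in KI kidneys. The groups did not overlap, and the log2 fold change was 1.94 ± 0.15, or 3.83-fold (adjusted p = 4.85e-08, edgeR). Plin2, the main droplet coat protein outside adipocytes, had 48.8, 63.8, 37.6 and 46.7 CPM in Cre(−) and 96.1, 86.6 and 115.9 CPM in KI kidneys. Again all KI libraries were higher, by 1.01 ± 0.16 on the log2 scale, or 2.02-fold (adjusted p = 6.25e-05, edgeR).

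Plin5, the perilipin of oxidative tissues that links droplets to mitochondria, went the other way. It had 3.57, 4.50, 2.65 and 4.29 CPM in Cre(−) and 1.67, 2.64 and 2.28 CPM in KI kidneys. The groups lay next to each other, since the lowest Cre(−) and the highest KI library differed by less than the spread within either group. The log2 fold change was -0.77 ± 0.31 (adjusted p = 0.0394, edgeR), and this call was lost in 5 of the 7 fits that left out 1 library. The adjusted p was 0.0532 without Cre(−) replicate 1, 0.0952 without Cre(−) replicate 2, 0.0825 without Cre(−) replicate 4, 0.148 without KI replicate 1 and 0.0736 without KI replicate 3. On log2(TPM + 1) Plin5 changed by -0.20 (adjusted p = 0.412, limma), beside a median shift of 0.378 over all genes. In TPM the groups overlapped, at 1.54 to 2.78 in Cre(−) and 1.37 to 2.16 in KI kidneys. Thus its neighbour Plin4 rose 30.4-fold and Plin5 did not rise.

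The levels of the perilipins can be compared per length in TPM. Summed over Plin2 to Plin5, Cre(−) kidneys held 66.8, 81.7, 54.3 and 64.3 TPM and KI kidneys 303.3, 327.6 and 337.3 TPM. Plin4 made up 2.5% to 3.14% of this sum in Cre(−) kidneys and 21.3% to 31.2% in KI kidneys. Plin5 made up 2.83% to 3.67% in Cre(−) and 0.451% to 0.659% in KI kidneys. Plin2 fell as a share, from 57.9% to 62.9% down to 32.9% to 39.6%, although its own level rose. These sums and shares are descriptions, cover noncoding transcripts such as Plin2-208 too, and were not tested. On log2(TPM + 1) the median of all genes was 0.378 higher in KI than in Cre(−) kidneys, so the sums carry this shift too. Rescaled by TMM factors, mean Plin3 went from 21.5 to 27.8 TPM in Cre(−) and from 120.2 to 113 TPM in KI kidneys.

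**Figure D1:**
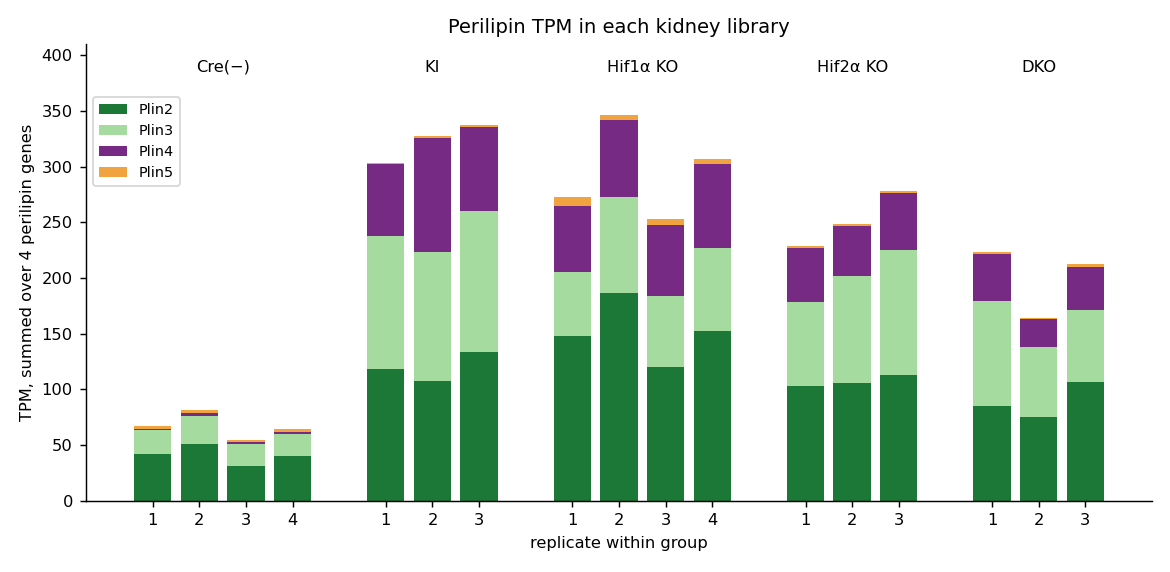
Stacked bars give the TPM of Plin2, Plin3, Plin4 and Plin5 in each of the 17 libraries, ordered by group and replicate, on a linear axis from 0. Cre(−) bars end at 54.3 to 81.7 TPM with a thin Plin4 layer, KI bars at 303.3 to 337.3 TPM, and the Plin5 layer is widest in Hif1α KO kidneys.

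Of the triacylglycerol synthases, Dgat2 fell and Dgat1 did not pass the test. Dgat2 had 123.8, 139.7, 101.5 and 99.7 CPM in Cre(−) and 39.6, 57.1 and 47.4 CPM in KI kidneys. All KI libraries were lower, by -1.27 ± 0.19 on the log2 scale, or 2.42-fold lower (adjusted p = 2.44e-05, edgeR). Dgat1 had 21.0, 25.3, 19.1 and 20.2 CPM in Cre(−) and 23.6, 27.7 and 19.1 CPM in KI kidneys, and the groups overlapped. Its log2 fold change was 0.13 with a 95% interval from -0.13 to 0.39. In TPM summed over all transcripts, the ratio of Dgat1 to Dgat2 was 0.415 to 0.484 in Cre(−) kidneys and 0.932 to 1.53 in KI kidneys. On these sums the order of both genes was turned in KI replicates 1 and 2 and nearly level in replicate 3. The order was not turned for the coding transcripts. Dgat1-201 had 7.12, 10.9 and 7.70 TPM in KI kidneys, and Dgat2-201 had 28.1, 40.7 and 30.6 TPM. The call on Dgat1 depends on the scale. TPM values are divided by the whole library, and on log2(TPM + 1) the median of all genes was shifted by 0.378 in this comparison, with 78.2% of the called genes higher, against 0.03 and 51.9% on TMM-scaled counts. Dgat1 then had a log2 fold change of 0.58 (adjusted p = 0.0103, limma) beside the shift of 0.378. On TMM-scaled counts it was -0.002 without KI replicate 2.

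Pnpla2, which encodes the lipase that starts lipolysis, had 154.3, 114.3, 113.7 and 153.3 CPM in Cre(−) kidneys and 73.5, 259.5 and 163.9 CPM in KI kidneys. The KI libraries lay below, above and just above the Cre(−) range, so the spread within KI was wider than the difference between the groups. The highest value was in KI replicate 2, which also held the most adipocyte marker RNA. Its log2 fold change was 0.31 ± 0.28 (adjusted p = 0.355, edgeR). It was -0.17 without KI replicate 2 (adjusted p = 0.578), 0.66 without KI replicate 1 (adjusted p = 0.00759) and -0.10 with an adipocyte marker score as covariate. Abhd5, the activator, had 37.8, 34.7, 35.8 and 32.1 CPM in Cre(−) and 51.3, 63.6 and 61.1 CPM in KI kidneys. It rose in all 3 KI libraries, by 0.74 ± 0.10 on the log2 scale, or 1.67-fold (adjusted p = 1.18e-05, edgeR), and by 0.68 without KI replicate 2.

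The inhibitors of the lipase moved apart. G0s2 had 19.0, 16.3, 25.1 and 36.4 CPM in Cre(−) and 6.04, 21.3 and 5.02 CPM in KI kidneys. KI replicates 1 and 3 were below all Cre(−) libraries and KI replicate 2 was within them. The difference on the log2 scale was -1.16 ± 0.48 (adjusted p = 0.0469, edgeR), and -2.13 without KI replicate 2 (adjusted p = 0.00108). The call was lost without Cre(−) replicate 3 (adjusted p = 0.0747), Cre(−) replicate 4 (0.134), KI replicate 1 (0.173) or KI replicate 3 (0.179). The part of adipocyte RNA in the G0s2 and Pnpla2 values was not tested beyond these fits. Hilpda, a hypoxia-inducible inhibitor, had 1.37, 1.45, 1.13 and 1.01 CPM in Cre(−) and 1.78, 2.10 and 3.82 CPM in KI kidneys. All KI libraries were higher, by 1.05 ± 0.31 on the log2 scale (adjusted p = 0.00881, edgeR). Without KI replicate 3, the highest, the log2 fold change was 0.65 (adjusted p = 0.0875). Hilpda was the least abundant member in Cre(−) kidneys, yet above the level of 3 counts, which equals 0.117 to 0.206 CPM and covers counting error only.

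**Figure D2:**
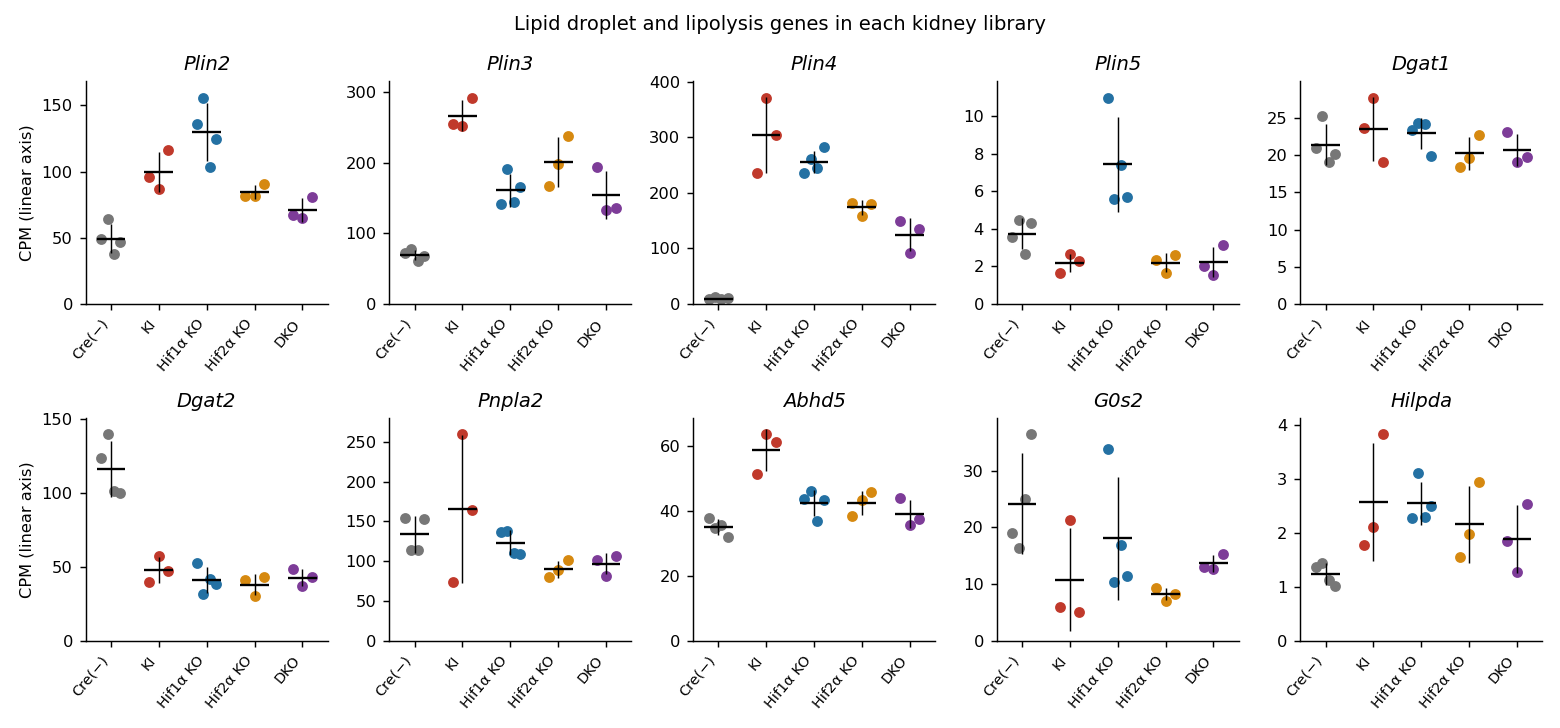
Points give the CPM of each member in each of the 17 libraries on linear axes from 0, by group, with a bar at the group mean and a line of ± 1 SD. Plin4 lies at 8.74 to 12.0 CPM in Cre(−) kidneys and above 90 CPM in the other groups, and Plin5 is highest in the 4 Hif1α KO libraries.

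The next comparisons, of each KO group with the same 3 KI kidneys, asked what the loss of Hif1α, Hif2α or both changes once the fusion is active. They share the KI libraries, including replicate 2, so their values are given side by side and not as separate evidence. In Hif1α KO kidneys Plin5 was higher and Plin3 and Abhd5 were lower, thus 1 of 10 members was higher (2.57% of all genes) and 2 were lower (2.86% of all genes). In Hif2α KO kidneys 0 members were higher (0.741% of all genes) and 2, Plin4 and Abhd5, were lower (0.647% of all genes). In DKO kidneys 0 members were higher (6.53% of all genes) and 3, Plin3, Plin4 and Abhd5, were lower (6.19% of all genes). At an unadjusted p under 0.05 (edgeR), 0 members were higher in Hif2α KO or DKO kidneys, beside 1734 and 2535 of the 17011 genes. By DESeq2 0 members were higher in either group, beside 522 and 1447 genes. The medians of the members were -0.13, -0.37 and -0.47 on the log2 scale in these 3 comparisons, and those of all genes -0.003, -0.007 and -0.003.

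Plin5 had 11.0, 5.61, 7.42 and 5.70 CPM in Hif1α KO kidneys, 2.33, 1.66 and 2.63 CPM in Hif2α KO, and, in DKO kidneys, 2.05, 1.53 and 3.12 CPM. Each Hif1α KO library was above every library of the other 4 groups, of which Cre(−) replicate 2 was the highest at 4.50 CPM. Against KI, the log2 fold change was 1.75 ± 0.31, or 3.37-fold (edgeR quasi-likelihood test, adjusted p = 0.00851), and it passed in all 7 fits that left out 1 library, at 1.5 to 1.91. Against Cre(−) it was 0.98 ± 0.27 (adjusted p = 0.00535). In the Hif2α KO and DKO kidneys the differences from KI were 0.01 (95% interval -0.63 to 0.64) and 0.03 (-0.62 to 0.66). Proximal tubule markers moved as well, since 6 of 10 were higher in Hif1α KO than in KI kidneys and 6 of 10 were higher in DKO than in KI kidneys. Their sums were 1714, 646.8, 997.6 and 916.3 TPM in the Hif1α KO libraries and 931.3, 1524 and 1216 TPM in the DKO libraries. The part of proximal tubule cells in the Plin5 values was not tested.

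Plin3 had 141.7, 191.2, 144.3 and 165.9 CPM in Hif1α KO, 166.6, 197.8 and 237.0 CPM in Hif2α KO and 193.7, 132.8 and 135.7 CPM in DKO kidneys. All of these were below the lowest KI library at 252.0 CPM and above all Cre(−) libraries. The log2 fold change against KI was -0.73 ± 0.15 in Hif1α KO (adjusted p = 0.0151, edgeR) and -0.79 ± 0.16 in DKO kidneys (adjusted p = 0.00785), and it was -0.41 ± 0.16 in Hif2α KO kidneys (adjusted p = 0.183). The Hif1α KO call was lost without KI replicate 3 (adjusted p = 0.0509), Hif1α KO replicate 1 (0.0505) or Hif1α KO replicate 3 (0.0533). The difference of Plin3 between Hif1α KO and Hif2α KO kidneys did not pass the test, at -0.32 (95% interval -0.61 to -0.02, adjusted p = 0.335, edgeR).

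Plin4 had 235.6, 260.4, 244.8 and 282.0 CPM in Hif1α KO, 182.6, 157.9 and 180.6 CPM in Hif2α KO and 149.3, 91.2 and 134.8 CPM in DKO kidneys. The Hif1α KO libraries lay within the KI range, while all Hif2α KO and DKO libraries lay below it. Against KI, the log2 fold change was -0.25 ± 0.16 in Hif1α KO (adjusted p = 0.414, edgeR), -0.80 ± 0.18 in Hif2α KO (adjusted p = 0.0423) and -1.28 ± 0.18 in DKO kidneys, or 2.42-fold lower (adjusted p = 0.00166). The DKO call passed in all 6 fits that left out 1 library. The Hif2α KO call passed in 1 of 6, and was lost without KI replicate 2 (adjusted p = 0.105) or 3 (0.154) and without Hif2α KO replicate 1 (0.0759), 2 (0.117) or 3 (0.0799). Even in DKO kidneys Plin4 stayed 12.6-fold above Cre(−) kidneys.

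Plin2 had 136.2, 155.8, 103.2 and 124.6 CPM in Hif1α KO, 81.7, 81.4 and 90.8 CPM in Hif2α KO and 67.2, 64.8 and 80.9 CPM in DKO kidneys. Hif1α KO kidneys overlapped with KI kidneys at the upper end, and all DKO libraries were below all KI libraries. The differences from KI did not pass the test, with log2 fold changes of 0.38 ± 0.16 in Hif1α KO (adjusted p = 0.181, edgeR), -0.23 ± 0.17 in Hif2α KO (adjusted p = 0.487) and -0.49 ± 0.17 in DKO kidneys (adjusted p = 0.0774, and 0.0424 in DESeq2). Plin2 was the most abundant member in TPM in all KO groups, with means of 151.7 in Hif1α KO, 107.2 in Hif2α KO and 88.9 in DKO kidneys. Its range overlapped that of the next member in Hif2α KO and DKO kidneys, but not in Hif1α KO kidneys. These levels include the noncoding transcript Plin2-208. The coding Plin2-201 alone had means of 87.5, 59.8 and 52.1 TPM in Hif1α KO, Hif2α KO and DKO kidneys. The coding Plin3-201 had 66.3, 87.6 and 68.4 TPM, so its mean was above that of Plin2-201 in Hif2α KO and DKO kidneys.

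Abhd5 had 43.5, 46.2, 36.8 and 43.4 CPM in Hif1α KO, 38.4, 43.3 and 45.7 CPM in Hif2α KO and 43.8, 35.5 and 37.5 CPM in DKO kidneys. All 10 of these libraries were below the lowest KI library at 51.3 CPM. The log2 fold changes against KI were -0.47 ± 0.10 in Hif1α KO (adjusted p = 0.0180, edgeR), -0.47 ± 0.11 in Hif2α KO (adjusted p = 0.0480) and -0.59 ± 0.11 in DKO kidneys (adjusted p = 0.00469). The DKO call passed in all 6 fits that left out 1 library, but not with limma on log2(TPM + 1) (adjusted p = 0.0578) or log2(TPM + 0.1) (0.0625). The Hif1α KO call was lost without KI replicate 2 (adjusted p = 0.0738), KI replicate 3 (0.0558) or Hif1α KO replicate 3 (0.0614). The Hif2α KO call was lost without KI replicate 2 (0.112) or 3 (0.196) and without Hif2α KO replicate 1 (0.116), 2 (0.104) or 3 (0.0682).

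The other members did not pass the edgeR test in any KO group against KI. Dgat2 stayed low, at 31.7 to 52.9 CPM in Hif1α KO, 30.1 to 43.2 CPM in Hif2α KO and 37.3 to 48.3 CPM in DKO kidneys, all below the lowest Cre(−) library at 99.7 CPM. Dgat1 ranged from 18.4 to 24.3 CPM over the 10 KO libraries, within or next to its range in Cre(−) and KI kidneys. Pnpla2 had 136.2, 137.5, 110.9 and 108.7 CPM in Hif1α KO, 79.9, 88.4 and 101.0 CPM in Hif2α KO and 101.0, 81.8 and 107.1 CPM in DKO kidneys. All Hif2α KO and DKO libraries were below the lowest Cre(−) library at 113.7 CPM, but the wide spread of KI kidneys covered all KO libraries. The log2 fold change of Pnpla2 against KI was -0.88 ± 0.30 in Hif2α KO (adjusted p = 0.131, edgeR, and 0.0489, DESeq2) and -0.78 ± 0.30 in DKO kidneys (adjusted p = 0.0991, edgeR, and 0.0495, DESeq2). Both values rested on the KI libraries. Without KI replicate 1, the lowest, they were -1.24 (adjusted p = 0.00608) and -1.13 (0.00376), and without KI replicate 2, the highest, -0.40 (0.445) and -0.30 (0.487). G0s2 had 33.8, 10.3, 16.9 and 11.4 CPM in Hif1α KO, 9.29, 7.09 and 8.30 CPM in Hif2α KO and 13.0, 12.7 and 15.3 CPM in DKO kidneys. Hif1α KO replicate 1, the highest for G0s2, was also the highest KO library for Plin5 and for the sum of proximal tubule markers. Hilpda had 2.27 to 3.12 CPM in Hif1α KO, 1.56 to 2.94 CPM in Hif2α KO and 1.26 to 2.54 CPM in DKO kidneys, and its difference between Hif1α KO and KI kidneys was -0.01 with a 95% interval from -0.60 to 0.58.

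**Figure D3:**
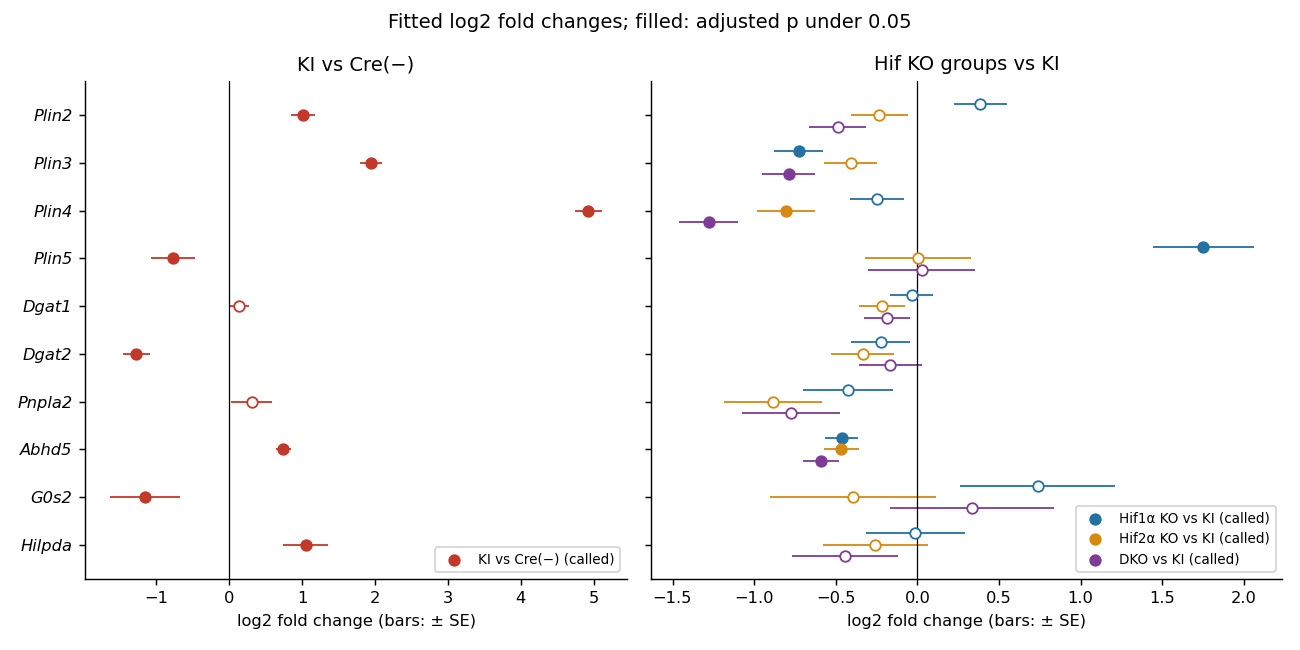
Points give the log2 fold change of each member with a bar of ± 1 SE, on the left for KI against Cre(−) and on the right for the 3 KO groups against KI, with filled points at an adjusted p under 0.05. Plin4 reaches 4.93 on the left, and on the right Plin5 stands at 1.75 in Hif1α KO kidneys and Plin4 at -1.28 in DKO kidneys.

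Hif1α KO and Hif2α KO kidneys were also compared directly. Plin5 was the only member that passed, thus 1 of 10 was higher in Hif1α KO kidneys (0.329% of all genes) and 0 were lower (0.0999% of all genes). At an unadjusted p under 0.05 (edgeR) 0 members were lower, beside 1184 of the 17011 genes, and by DESeq2 0 members, beside 193 genes. The values of Plin5 follow. Its log2 difference was 1.75 ± 0.31, or 3.36-fold (adjusted p = 0.0258, edgeR). The call was lost without Hif1α KO replicate 1 (1.49, adjusted p = 0.0677) or 3 (1.73, 0.0633) and without Hif2α KO replicate 2 (1.58, 0.156) or 3 (1.89, 0.0832). Plin2 and Plin4 were higher in every Hif1α KO library than in every Hif2α KO library, by 0.62 ± 0.16 and 0.56 ± 0.17 on the log2 scale, but the adjusted p was 0.0984 and 0.138 in edgeR, and 0.0179 and 0.0434 in DESeq2. G0s2 and Pnpla2 did not overlap between these groups either, with log2 differences of 1.13 ± 0.48 (adjusted p = 0.283, edgeR) and 0.46 ± 0.28 (adjusted p = 0.471, edgeR).

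Whether the loss of Hif1α acts alike with and without Hif2α was tested as an interaction. No member passed this test (0.0% of all genes did), while 3 of 10 members and 1013 genes had an unadjusted p under 0.05 and DESeq2 called 0 members and 31 genes. Plin5 had the lowest p among the members. Its log2 interaction was -1.73 ± 0.44, since it was high in Hif1α KO and low in DKO kidneys (adjusted p = 0.492, edgeR). Plin2 had an interaction of -0.64 ± 0.24 (adjusted p = 0.780, edgeR) and Abhd5 one of 0.34 ± 0.15 (adjusted p = 0.811, edgeR).

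Each KO group was finally compared with the same 4 Cre(−) kidneys, so these comparisons share their controls with each other and with the first one. In Hif1α KO kidneys 6 of 10 members were higher (31.9% of all genes) and 1 was lower (30.1% of all genes). In Hif2α KO kidneys 5 were higher (32.0% of all genes) and 3 were lower (29.9% of all genes), and in DKO kidneys 3 were higher (30.4% of all genes) and 2 were lower (27.9% of all genes). Plin2, Plin3 and Plin4 were higher and Dgat2 was lower in all 3 KO groups. Plin2 was 2.64-fold above Cre(−) in Hif1α KO, 1.72-fold in Hif2α KO and 1.44-fold in DKO kidneys, the last with an adjusted p of 0.0119 (edgeR) that became 0.0645 without DKO replicate 3. Hilpda was 2.05-fold higher in Hif1α KO kidneys (adjusted p = 0.00626, edgeR) and 1.73-fold higher in Hif2α KO kidneys (adjusted p = 0.0383), a call lost in 5 of 7 fits that left out 1 library (adjusted p up to 0.212, without Hif2α KO replicate 3). In DKO kidneys its log2 fold change was 0.60 (adjusted p = 0.113, edgeR).

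The order of the levels within each group was read in TPM, per length, summed over coding and noncoding transcripts of each gene. In Cre(−) kidneys Pnpla2 led with a mean of 80.4 TPM, followed by Dgat2 (58.9), Plin2 (41.2), G0s2 (33.0), Dgat1 (26.3), Plin3 (21.5) and Abhd5 (20.2), and each range overlapped that of the next gene. Plin5 (2.16), Plin4 (1.93) and Hilpda (1.54) followed far below. In KI kidneys Pnpla2 (133.9), Plin3 (120.2) and Plin2 (119.9) overlapped at the top, Plin4 came next at 80.9 TPM, apart from the genes on either side, and Plin5 was last at 1.74. In Hif1α KO kidneys the last 2 places were held by Plin5 (5.71) and Hilpda (4.33), whose ranges overlapped. The ratio of Abhd5 to the sum of its 2 opponents G0s2 and Hilpda was 0.330 to 0.975 in Cre(−) and 1.1 to 2.92 in KI kidneys. It was 0.453 to 1.32 in Hif1α KO, 1.41 to 1.94 in Hif2α KO and 0.905 to 1.18 in DKO kidneys, which overlapped with KI in each group.

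**Figure D4:**
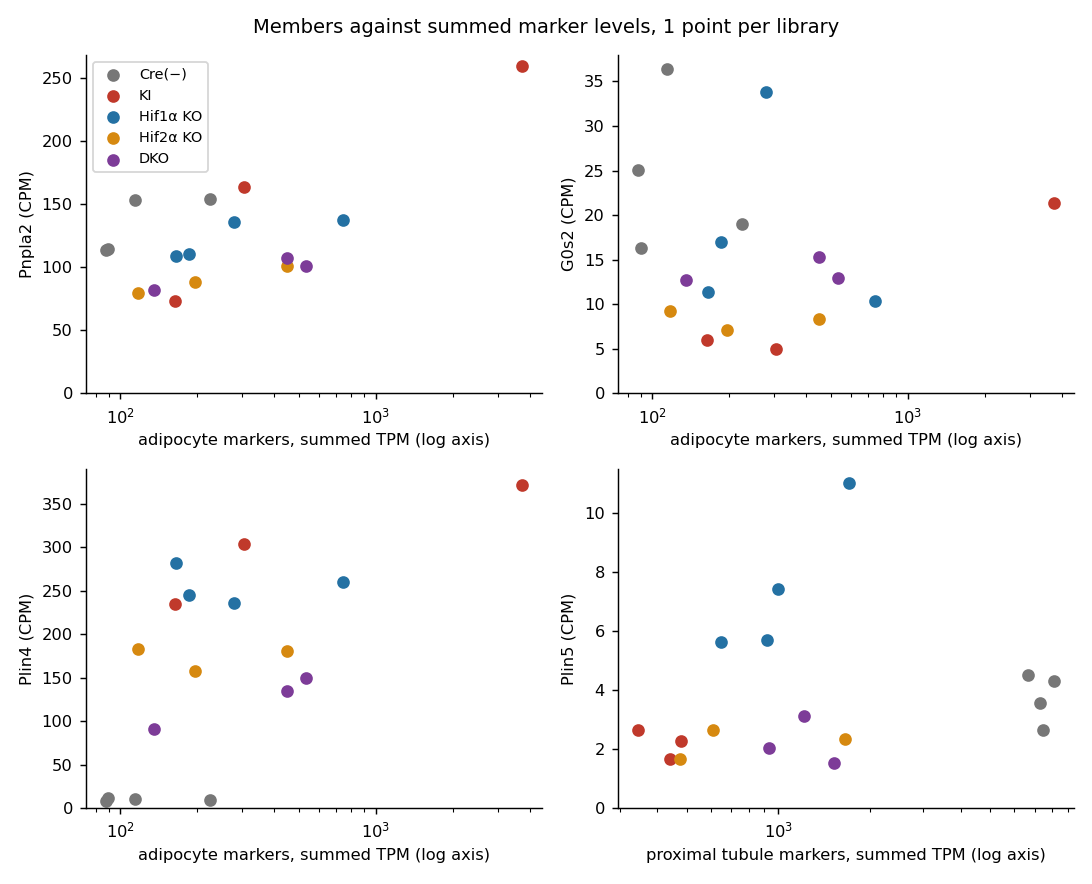
Each point is 1 library, with the CPM of Pnpla2, G0s2 and Plin4 against the summed TPM of 10 adipocyte markers, and the CPM of Plin5 against that of 10 proximal tubule markers, on log x axes. KI replicate 2 lies alone at 3714 TPM with the highest Pnpla2 and Plin4, and the 4 Hif1α KO libraries are the highest for Plin5 at proximal tubule sums of 646.8 to 1714 TPM.

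Members differed in how their TPM was split between transcripts. Dgat1 was spread over 12 transcripts, of which the coding Dgat1-201 held 16.1% to 31.9%, and the noncoding Dgat1-207 and Dgat1-210 held 19.7% to 41.4% and 7.59% to 26.2%. Dgat2 came from Dgat2-201 at 96.8% or more of its TPM in every library and G0s2 from its only transcript. Plin3 came from Plin3-201 at 90.8% or more. Both Plin4 transcripts, of 5755 and 5756 bases, held 55.1% to 56.9% and 43.1% to 44.9%, in every library. Plin2-201 held 51.7% to 73.4%, and the short noncoding Plin2-208 held 19.2% to 41.3% in Cre(−) and 40.1% to 43.1% in KI kidneys. Pnpla2-201, which is annotated as a target of nonsense-mediated decay, held 71.0% to 93.2% of the Pnpla2 TPM in all groups. Abhd5-201, annotated in the same way, held 29.4% to 49.5% in Cre(−) and 49.8% to 53.2% in KI kidneys. Splits between transcripts that share most of their sequence are estimates of the quantification, as the pair of Plin5 transcripts of equal length (1986 bases) shows, whose shares ran from 0 to 100% between libraries.

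Other genes of the pathway were counted in 5 lists of 42 genes, of which 41 were found and tested. In KI against Cre(−) kidneys 10 of 41 were higher (31.6% of all genes) and 17 lower (29.3% of all genes). Their median was -0.12, against 0.03 over all genes. The same shares of all genes stand beside the counts of each list below. Among 11 genes of triacylglycerol synthesis 2 rose and 6 fell, led by the acyltransferases of monoacylglycerol Mogat2 (-5.20 ± 0.73) and Mogat1 (-4.03 ± 0.47). Among 14 genes of droplet formation and coat 3 rose and 3 fell. Fitm1, which helps droplets to bud, fell by 5.19 ± 0.64, and Cidec, a droplet fusion protein of adipocytes, rose by 4.28 ± 1.27 with 3.56, 233.6 and 19.1 CPM in KI kidneys. Cidec is itself an adipocyte marker of the list above. Its highest value was again in KI replicate 2 and its lowest lay within the Cre(−) range. Among 7 other lipases 1 rose and 4 fell, led by Ces1d (-2.78 ± 0.49) and Aadac (-2.34 ± 0.24), both lipases of the endoplasmic reticulum. Of 3 genes of sterol ester storage 2 rose and 1 fell, and of these Soat1, which makes cholesterol esters, rose by 2.09 ± 0.16 and Nceh1, which splits them, fell by 1.32 ± 0.11 on the log2 scale. Of 6 regulators 2 rose and 3 fell. Among them were the fatty acid receptors Pparg (2.21 ± 0.55), of fat storage, and Ppara (-1.89 ± 0.28), of fat oxidation. Pparg had 29.4 CPM in KI replicate 2 and 9.43 and 3.82 CPM in replicates 1 and 3. It had 2.27 to 5.01 CPM in Cre(−) kidneys, so KI replicate 3 lay within their range.

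Against KI kidneys, 3 of these 41 genes were higher in Hif1α KO kidneys (2.57% of all genes) and 0 were lower in edgeR (2.86% of all genes). At an unadjusted p under 0.05, 10 were lower (1856 of all genes), and 6 were by DESeq2 (862 of all genes). The 3 genes were Lpin2, a phosphatidate phosphatase (0.75 ± 0.09, adjusted p = 0.00160), Mogat1 (1.82 ± 0.45, adjusted p = 0.0322) and Fitm1 (2.29 ± 0.63, adjusted p = 0.0460). All of them had fallen in KI against Cre(−) kidneys and were below all Cre(−) libraries in Hif1α KO kidneys. In Hif2α KO kidneys 0 of 41 passed in edgeR, where 0.741% of all genes were higher and 0.647% lower. At an unadjusted p under 0.05 there were 13 (3262 of all genes), and by DESeq2 4 (986 of all genes). In DKO kidneys 2 were higher (6.53% of all genes) and 5 were lower (6.19% of all genes). Ppara had 29.3, 14.0, 19.6 and 18.9 CPM in Hif1α KO and 7.42, 13.3 and 16.0 CPM in KI kidneys, a difference of 0.74 ± 0.27 that did not pass the test (adjusted p = 0.122, edgeR).

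For each member, the genes with the most similar pattern over the 17 libraries were found by the root mean square difference of centred log2 CPM. Plin4 was closest to Plcxd2 (0.29) and Il16 (0.34), and the SD of the members themselves ran from 0.17 for Dgat1 to 1.97 for Plin4, which limits a comparison of these differences between members. Plin3 was closest to H3f3a (0.10) and Irak2 (0.11), Plin2 to S100a10 (0.22) and Cebpb (0.23), and Plin5 to Psat1 (0.39) and Mt2 (0.41). Dgat2 was closest to Hibch (0.17) and Echs1 (0.17), Dgat1 to Hira (0.12) and Ctif (0.12), and Pnpla2 to Slc27a1 (0.20) and Arl4a (0.24). Abhd5 was closest to Cds2 (0.10) and Iqsec1 (0.11), G0s2 to Fa2h (0.46) and Cd300lg (0.47), and Hilpda to Srd5a1 (0.24) and Ypel2 (0.26). These values describe the same libraries and carry no test.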

How the data were processed

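Kidney mRNA of 17 mice in 5 groups was sequenced, and the submitters' processing notes name Trim Galore 0.6.6, cutadapt 2.5 and STAR 2.7.9a with the builds hg38 and GRCm38. The transcripts in the files are of mouse, so GRCm38 was used for positions. The study's methods name RSEM for quantification. The authors deposited expected counts per transcript, which are estimates that are not normalized between libraries. They also deposited TPM per transcript, which the authors normalized for transcript length and library total. Of 119353 transcripts, 116770 (97.8%) were matched to GENCODE M21 and held at least 99.04% of each library's counts. Counts and TPM were summed per gene, and sums of counts were rounded.

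Contrasts were tested by quasi-likelihood in edgeR 4.0.16 under R 4.3.3, with TMM factors, filterByExpr at a minimum count of 10 and 1 fit of 17 libraries, which tested 17011 genes, with Benjamini-Hochberg adjustment and a threshold of 0.05. Values in the text are CPM on TMM-scaled libraries unless TPM is named. The 9 contrasts were those of the text and the interaction. P-values set a difference against the spread between mice within groups, pooled over all 5 groups of the fit. No litter or batch is given. The members, gene lists and markers were chosen with earlier results of these data known. The other genes named were, per list, the 2 with the largest change in KI against Cre(−) past the threshold and at 1 TPM or more in either group, those past the threshold in Hif1α KO or Hif2α KO against KI, and per member the 2 most similar genes. Ppara in Hif1α KO kidneys was given after its values were seen. Ldaf1 was not matched by that symbol and was not analysed here. Other fits used DESeq2 1.42.0 and limma 3.58.1. Python 3.11.15 with pandas 2.3.3 and matplotlib 3.10.9 served for tables and plots. Alternatives were DESeq2's test and size factors, no filter, only the groups compared, a replicate block, limma on log2(TPM + 1) and log2(TPM + 0.1), an adipocyte score as covariate, either pair of Cre(−) mice, TPM rescaled by TMM factors, and leaving out each library.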

Additional observations from a re-analysis of the deposited data

How the results depend on the processing

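Values of single members under alternatives other than leaving out 1 library were counted for a selected part of the members and contrasts. Of these, 403 kept their direction and side of the threshold, 56 lost the call, 8 gained it and 1 reversed. The reversed value was Pnpla2 in KI against Cre(−) with the adipocyte score as covariate (-0.098). Calls gained outside this selection, as in DKO against Cre(−) with limma, are not among the 8. The cause was not tested for any of these changes. The counts of members called also moved, and the list that follows is not complete. G0s2 in KI against Cre(−), for example, was also lost with only the groups compared (adjusted p = 0.0743, edgeR). Plin2 in DKO against Cre(−) was also lost with Cre(−) replicates 1 and 2 only (0.112, edgeR). Lower in KI against Cre(−), 3 became 1 with no filter, with the replicate block, with limma on TPM at either pseudocount, and with Cre(−) replicates 1 and 2 only. In Hif2α KO against Cre(−), 5 higher became 3 with the replicate block and with Cre(−) replicates 1 and 2 only, and 3 lower became 1 with limma at either pseudocount and with Cre(−) replicates 1 and 2 only. In DKO against Cre(−), 3 higher became 5 with limma at either pseudocount, and 2 lower became 1 with no filter, the replicate block, limma at either pseudocount and either pair of Cre(−) mice. In Hif1α KO against KI, 2 lower became 1 with only the groups compared, the replicate block and limma at either pseudocount. In Hif2α KO against KI, 2 lower became 1 with no filter and 0 with only the groups compared, the replicate block, limma at either pseudocount and the adipocyte score. In DKO against KI, 3 lower became 5 with DESeq2. Between Hif1α KO and Hif2α KO, 1 higher became 3 with DESeq2, 2 with only the groups compared and 0 with the replicate block. Deviations of libraries with the same replicate number had r from -0.223 to 0.249 over 31 pairs. Pairs with different numbers were not compared, so a shared litter or batch was not tested. Of 50 mean levels in TPM, 38 moved by less than 1 SD when TPM were rescaled by TMM factors and 12 moved by more, 9 of them in Cre(−) kidneys, where Plin2 went from 41.2 to 53.3 and Pnpla2 from 80.4 to 104.8. When 1 library was left out, members higher and lower ranged from 4 to 6 and from 1 to 3 in KI against Cre(−), from 5 to 6 and 1 to 1 in Hif1α KO, from 3 to 5 and 2 to 3 in Hif2α KO, and from 2 to 4 and 1 to 2 in DKO against Cre(−). Against KI they ranged from 1 to 1 and 0 to 3 in Hif1α KO, from 0 to 0 and 0 to 3 in Hif2α KO, and from 0 to 0 and 3 to 4 in DKO, and between Hif1α KO and Hif2α KO from 0 to 1 and 0 to 0. The log2 fold change in KI against Cre(−) then ranged from -0.172 to 0.663 for Pnpla2 and from -0.002 to 0.263 for Dgat1, negative in both without KI replicate 2. With 3 or 4 mice a group, calls near the threshold rest on single libraries.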
